A study of Gallus gallus with 4 samples.

Results

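Of the 8375 HIF1α-DNA binding complexes listed for primary chick lens cells, 548 lay on an autosome and had a small noncoding RNA gene as the first gene named for their closest transcription start site (TSS). They were chosen by name alone, as the peaks on chromosomes other than Z and W whose gene symbol began with "gga-", the prefix of chicken microRNAs, or with an accession of Rfam, a catalogue of RNA families. These 548 were among 8133 autosomal peaks and belonged to 296 loci, a locus being 1 annotated transcript, so that an Rfam accession found at several places counted as several loci. In all, 294 peaks at 179 loci were nearest a microRNA and 254 peaks at 117 loci were nearest an Rfam gene. In 22 of the 548 the symbol was followed by that of another gene in the same entry. The start site measured there may be that of the other gene. The list names the Rfam accession but not the RNA, and some Rfam families are parts of longer noncoding RNAs, so an accession whose RNA is not named here was not checked to be a small RNA.

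The peaks come from CUT&RUN, in which an antibody guides a nuclease to a bound protein in permeabilized cells and the short DNA fragments it releases are sequenced. Lens cells of White Leghorn embryos at embryonic day 10 were cultured on laminin and treated for 4 h with 1 mM dimethyloxalylglycine (DMOG), an inhibitor of the prolyl hydroxylases that mark HIF1α for degradation. Each of 2 pools of 500000 cells was divided, one aliquot receiving the HIF1α antibody and the other a control IgG, which gave 2 HIF1α and 2 IgG libraries, all of them from DMOG-treated cells of the same pools. The 2 libraries of each antibody were pooled before peaks were called, so each peak has a single value with no replicate error, and no value can be compared with untreated cells. RNA was not measured in these libraries, so neither the lens identity of the cells nor the expression of any gene below was checked here.

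HIF1α is the oxygen-regulated subunit of a transcription factor that accumulates when prolyl hydroxylases are inactive and binds near genes of glycolysis, oxygen delivery and mitochondrial turnover. MicroRNAs are short RNAs cut from hairpin precursors that pair with messenger RNAs and lower their output, and mir-210 is the microRNA best known in mammals as a HIF target. Spliceosomal RNAs remove introns, ribosomal RNAs form the ribosome, and both kinds are present in many near-identical gene copies. The start site given for a microRNA is that of its annotated hairpin precursor, which is cut from a longer primary transcript that can begin elsewhere.

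The peaks nearest small noncoding RNA genes had the same median strength as the list as a whole and a longer median distance to their start sites. Strength is given by 3 values, namely the pileup, or count of HIF1α fragments at the summit, the fold enrichment, which is the pileup plus 1 over the background plus 1, and the −log10 q of peak calling. Local IgG coverage scaled to the HIF1α depth sets the background wherever it exceeds a genome-wide mean, and the lowest background or floor was 1.30 fragments. The median pileup was 9 fragments and the median fold enrichment 3.92 (95% interval 3.92 to 4.08), and both medians were the same over all autosomal peaks (fold enrichment 3.92, 95% interval 3.92 to 3.96). The background was at its floor at 49.8% of the 548 peaks and at 49.5% of all autosomal peaks. Pileups are whole numbers, so many peaks share the same values and equal medians say little about equal strength. A pileup of 7 to 9 fragments, the lowest in the list, was found at 346 of the 548 peaks (63.1%), compared with 58.9% of all autosomal peaks. A −log10 q of at least 3 was reached by 141 peaks (25.7%, Wilson 95% interval 22.2 to 29.6), against a background of 26.5% over all autosomal peaks. A single peak with 8 fragments carries a counting interval of 3.45 to 15.8 fragments, so peaks of this size cannot be told apart by their pileup. All such intervals cover counting error only.

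The distance to the closest TSS had a median of 32244 bp (95% interval 27683 to 38646), compared with 23349 bp (22416 to 24461) over all autosomal peaks. Within 3 kb lay 54 peaks (9.85%, 95% interval 7.63 to 12.6), against a background of 13.1%, and beyond 100 kb lay 111 peaks (20.3%), against 17.0%. The peak covered the start site itself in 2 of the 548 cases and in 79 of the 8133. When each locus was given by its strongest peak alone, 37 of 296 loci (12.5%, 95% interval 9.21 to 16.8) had that peak within 3 kb, compared with 880 of 5149 (17.1%) over all autosomal transcripts nearest a peak. A gene with several annotated start sites can enter the 5149 more than once. The peaks nearest small noncoding RNA genes were thus the farther of the compared sets on either way of counting, by description alone. The difference was smaller when the small RNA symbol could also stand later in the gene entry, as given in the closing sections.

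The median distance was not the same in each group of RNA. Peaks nearest microRNAs had a median distance of 25375.5 bp and lay within 3 kb in 36 of 294 cases (12.2%, 95% interval 8.98 to 16.5), so the microRNA interval included the share of all autosomal peaks. When each of the 179 microRNA loci was given by its strongest peak, the median was 22589 bp (18113 to 27611). On the same basis it was 15646 bp (14706 to 16428) over all autosomal transcripts nearest a peak. Within 3 kb lay 12.8% of the microRNA loci (95% interval 8.72 to 18.5), against 17.1%. Peaks nearest spliceosomal RNAs had a median of 71602 bp, and 20 of 57 (35.1%) were beyond 100 kb. Those nearest RF02271, the most frequent Rfam accession, had a median of 56543.5 bp, with 3 of 102 (2.94%, 95% interval 1.01 to 8.29) within 3 kb and 34 (33.3%) beyond 100 kb. Both Rfam groups therefore stood to the right of the microRNA peaks over most of the range. These differences are descriptions of 1 pooled list, in which neighbouring peaks share a locus, and were not tested.

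**Figure D1:**
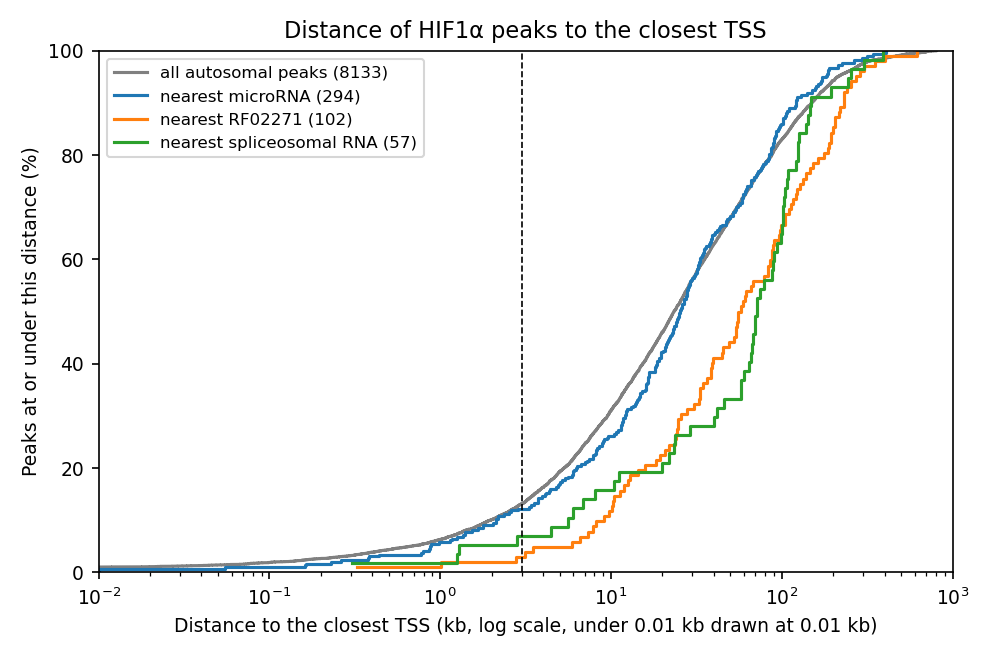
Share of peaks (%) at or under each distance to the closest TSS (kb, log scale) for all 8133 autosomal peaks and for those nearest microRNAs (294), RF02271 (102) and spliceosomal RNAs (57), with a dashed line at 3 kb. The microRNA curve runs close to that of all autosomal peaks, while at 3 kb the RF02271 curve has reached 2.94%.

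Among the microRNAs, the densest group of peaks near a start site was that of gga-mir-210a on chromosome 5, a chicken gene of the mir-210 family. The 4 peaks lay side by side on the lower-coordinate side of the start site at position 16094292 (galGal6), all within 2129 bp of it and within a stretch of 1936 bp, with gaps of 115, 406 and 323 bp between them. The peak closest to the start site, from 16093444 to 16093912 and 380 bp away, had 33 fragments (exact Poisson 95% interval 22.7 to 46.3) and a fold enrichment of 5.39 (3.76 to 7.51) with a −log10 q of 11.6. It was the broadest and deepest of the 4, and the background beneath it was 5.31 fragments, which is over 3 times the floor and is called a high IgG background here. The peak from 16092915 to 16093120, at 1172 bp, had 12 fragments and a fold enrichment of 5.66. The peak from 16092279 to 16092508, at 1784 bp, had 11 fragments and a fold enrichment of 5.22. The farthest, from 16091977 to 16092163 at 2129 bp, had 10 fragments and a fold enrichment of 4.79. At these 3 the background was at its floor of 1.30 fragments, and their counting intervals overlapped.

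The −log10 q was 3.07 or more at all 4 peaks of gga-mir-210a. It was the 1 autosomal transcript in the list with 4 peaks within 3 kb, whereas 6 transcripts had 3, 43 had 2 and 960 had 1. That rank depends on how peaks were split, since the 4 would count as 1 if peaks within 1 kb were merged. The count is also per transcript, so the peaks of a gene with several annotated start sites are divided among them. The nearest listed peak of another gene was 87408 bp away on the lower side and 67042 bp away on the higher side. In the NCBI RefSeq annotation of the later GRCg7b assembly, the precursor lies inside the long noncoding RNA LOC107053412, and another copy, MIR210B, is within 10 kb of it. Because that assembly is not the one used for the peaks, where MIR210B lies relative to the 4 peaks was not analysed here, nor were exons and introns at any peak.

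Peaks also lay at the start site of gga-mir-107 on chromosome 6. RefSeq places this microRNA inside PANK1, a pantothenate kinase gene of coenzyme A synthesis. A peak from 20232433 to 20232557 covered the start site of the precursor, with 8 fragments and a fold enrichment of 3.23, with a −log10 q of 1.38. A stronger peak from 20233325 to 20233631, at 871 bp, had 11 fragments and a fold enrichment of 5.22, with a −log10 q of 3.88. Another, from 20240945 to 20241065 at 8491 bp, had 10 fragments and a fold enrichment of 4.79. The peak on the start site was thus the weakest of the 3, though the counting intervals of all of them overlapped. No peak of the list carried the symbol PANK1.

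**Figure D2:**
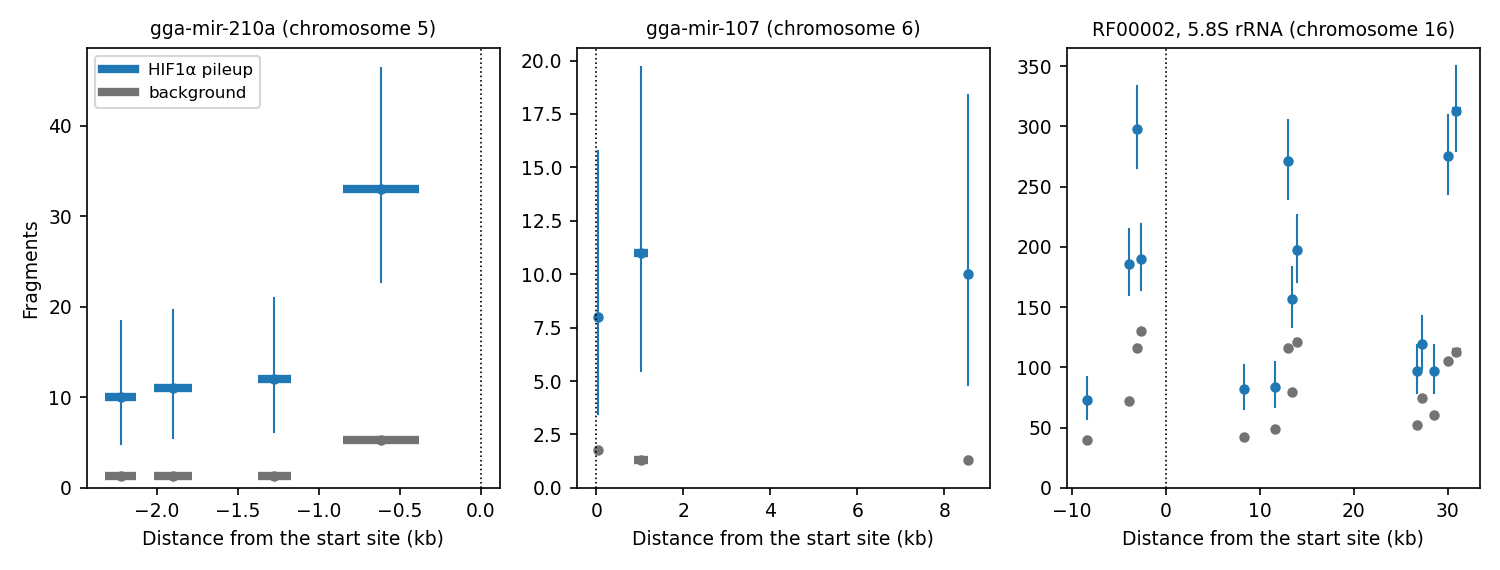
Pileup (blue, HIF1α fragments, with exact Poisson 95% intervals as vertical lines) and background (grey, fragments) of each peak against its distance from the annotated start site (kb) at gga-mir-210a, gga-mir-107 and the 5.8S rRNA gene RF00002, with the start site at 0 and horizontal bars for the peak's extent. The 4 peaks at gga-mir-210a lie on 1 side of the start site with 10 to 33 fragments over a background of 1.30 to 5.31, whereas at RF00002 the background reaches 40.0 to 130 fragments.

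A list of 11 microRNA families that respond to low oxygen in mammals (mir-210, mir-155, mir-21, mir-199, mir-107, mir-103, mir-23, mir-24, mir-27, mir-26 and mir-181) had member peaks for 3 families, namely mir-210, mir-107 and mir-181. These families had 8 peaks, of which 6 were within 3 kb and 6 had a −log10 q of at least 3, with a median fold enrichment of 5.01 and a median distance of 1478 bp. Over all autosomal peaks the background was 13.1% within 3 kb and 26.5% at that −log10 q. All 6 close peaks belonged to gga-mir-210a and gga-mir-107, so the list's values are those of few loci. Gaps were 115 to 406 bp between the peaks of gga-mir-210a and 767 bp between the close peaks of gga-mir-107. Peaks this near each other would merge at 1 kb, so the 6 are not independent of each other. The other 2 of the 8 peaks were the one 8491 bp from gga-mir-107 and a peak with 7 fragments at 25915 bp from its start site. The latter was listed under both gga-mir-181b-1 and gga-mir-181a-1 with a single transcript. A family was counted only where its own symbol stood in a peak's entry. The mir-199 gene MIR199A2, within 10 kb of gga-mir-214, was therefore not counted, although gga-mir-214 had a peak. The list of families was drawn up with results of these data already known and was given no test.

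Of 14 microRNA families known from lens or eye (mir-204, mir-211, mir-184, mir-31, mir-125b, mir-26a, let-7, mir-181a, mir-182, mir-183, mir-96, mir-124, mir-9 and mir-7), 4 had member peaks. These numbered 6, of which 1 was within 3 kb and 1 had a −log10 q of at least 3, with a median fold enrichment of 4.14. At 1 of 6, both counts are near the same background shares of 13.1% and 26.5%. The peak within 3 kb, on chromosome 1 from 100426127 to 100426445, lay 1653 bp from gga-mir-125b-2 and had 13 fragments (95% interval 6.92 to 22.2) and a fold enrichment of 5.55, with a −log10 q of 4.90. At gga-let-7d the peak was 3308 bp from the start site with 9 fragments, and at gga-let-7a-1, in the same cluster of precursors on chromosome 12, it was 12086 bp away, also with 9 fragments. The let-7 family acts on growth and on the timing of differentiation in many animals. Another let-7 gene, gga-let-7a-3 inside PPARA, a receptor for fatty acids, had its peak 167481 bp away.

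The microRNA most closely tied to the lens and retinal pigment epithelium, mir-204, was represented on an autosome by gga-mir-204-2 on chromosome 10. Its peak from 6147680 to 6147786, at 6717 bp, had 8 fragments and a fold enrichment of 3.92, which is at the weak end of the list. The precursor lies inside TRPM1, a cation channel gene of pigment cells and retina. The list holds 3 further peaks under the shared symbols of TRPM1 and MTMR10, and the closest of them, from 6137495 to 6137649, was 2456 bp from its start site with 10 fragments and a fold enrichment of 4.79.

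In total, 21 peaks lay within 1 kb of the start site of a microRNA or Rfam gene (3.83%, compared with 6.32% of all autosomal peaks), and 17 of them were nearest 15 microRNAs. Besides gga-mir-107, the start site was covered at gga-mir-425 on chromosome 12, which lies within 10 kb of MIR191, by a peak from 12045591 to 12045737 with 10 fragments and a fold enrichment of 4.56, with a −log10 q of 2.87. A peak 55 bp from gga-mir-214, whose precursor lies with MIR199A2 inside the dynamin gene DNM3, had 8 fragments and a fold enrichment of 3.84. Its position on chromosome 8 was 5026533 to 5026676. Peaks at gga-mir-1550 (161 bp, inside the phosphatase gene PTPRG), gga-mir-1682 (163 bp, within 10 kb of MIR33-2), gga-mir-1638 (383 bp), gga-mir-6589 (793 bp, inside WTIP) and gga-mir-12239 (261 bp, inside PRKAG2, which encodes a subunit of the energy sensor AMPK) each had 7 fragments. These 5 were at the lowest pileup that the list contains.

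Against a background of 26.5% over all autosomal peaks, 5 of the 17 microRNA peaks within 1 kb had a −log10 q of at least 3. Beside the peaks of gga-mir-210a and gga-mir-107 given above, these were gga-mir-6692 at 878 bp inside TRIP4 with 11 fragments and a fold enrichment of 5.22, gga-mir-757 at 871 bp inside TRIO with 12 fragments and 4.55, and gga-mir-1813-1 at 228 bp inside OXR1 with 10 fragments and 4.79. OXR1 protects cells from oxidative damage, and TRIO activates small GTPases of the cytoskeleton. The others were gga-mir-7468 at 439 bp and gga-mir-6683 at 769 bp with 8 fragments each, and gga-mir-1734 at 863 bp inside the utrophin gene UTRN and gga-mir-12239 again at 980 bp with 9 each. At gga-mir-1813-1, on chromosome 2, 4 peaks stood between 228 and 34459 bp from the start site, and 3 of them had a −log10 q over 3.

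A wider view of the microRNAs gave 63 symbols with a peak within 10 kb out of 176, from 77 peaks, of which 27 had a −log10 q of at least 3. These 77 were 26.2% of the 294 microRNA peaks, against a background of 31.0% of all autosomal peaks within 10 kb of a start site. That −log10 q was reached by 26.5% of all autosomal peaks. For 16 of these symbols the nearest peak was between 1 and 3 kb away, namely gga-mir-499, gga-mir-1671, gga-mir-7476, gga-mir-1739, gga-mir-6608-1, gga-mir-6558, gga-mir-125b-2, gga-mir-133a-2, gga-mir-6653, gga-mir-6581, gga-mir-6553, gga-mir-6633, gga-mir-1701, gga-mir-6595, gga-mir-6616 and gga-mir-1806. Among them gga-mir-499, inside the myosin gene MYH7B, and gga-mir-133a-2 are microRNAs of muscle, with 9 and 7 fragments at 1137 and 1779 bp. For 32 symbols the nearest peak was between 3 and 10 kb away, in the order of distance gga-let-7d, gga-mir-1568, gga-mir-363, gga-mir-1590, gga-mir-6596, gga-mir-383, gga-mir-1755, gga-mir-1626, gga-mir-3532, gga-mir-6713, gga-mir-6631, gga-mir-551, gga-mir-1624, gga-mir-1721, gga-mir-1750, gga-mir-1775, gga-mir-12210, gga-mir-12265, gga-mir-6672, gga-mir-1569, gga-mir-12208, gga-mir-204-2, gga-mir-12207, gga-mir-1576, gga-mir-6652, gga-mir-6661, gga-mir-6671, gga-mir-12238, gga-mir-1689, gga-mir-1807, gga-mir-128-1 and gga-mir-6592. Peaks in that range of distance numbered 41, with 7 to 47 fragments and fold enrichments of 3.17 to 7.37. The microRNA gga-mir-363 belongs to a cluster related to that of mir-17 and had 8 fragments at 3552 bp, and gga-mir-128-1, a microRNA of brain inside R3HDM1, had 15 fragments and a fold enrichment of 6.34 at 9015 bp.

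By RefSeq, 168 of the 176 microRNA symbols could be matched, and 113 of these (67.3%) lay inside a protein-coding gene, 22 inside a long noncoding RNA alone and 33 inside neither. The peaks in these classes numbered 188, 39 and 56, and 11 peaks belonged to unmatched symbols. Over all 747 autosomal microRNAs of RefSeq, with or without a peak, the share inside a protein-coding gene was 74.2%. The 67.3% covers only microRNAs named first in a peak's entry. A microRNA listed after a protein-coding gene, such as gga-mir-21 after VMP1, is left out of it, so the shares are not directly comparable. The host gene named another peak of the list for 41 of the 113 (36.3%). Hosts named a peak for 101 of 441 hosted microRNAs never named first in an entry (22.9%). Of autosomal protein-coding genes, 3445 of 16824 (20.5%) named one. For 8 of the 113 (7.08%) the host's peak was within 3 kb of a start site, against 29 of the 441 (6.58%) and 745 of the 16824 genes (4.43%). The 441 can include microRNAs named later in an entry. There the shared peak may also count as the host's, so the 441 are not a set without peaks. Gene length was not matched between these sets and the shares were given no test. The 8 microRNAs were gga-mir-12239 in PRKAG2, gga-mir-1576 in PPP2R2B, gga-mir-1734 in UTRN, gga-mir-1806 in CADM2, gga-mir-1813-2 in FAM169B, gga-mir-204-2 in TRPM1, gga-mir-7455 in CARMIL1 and gga-mir-7465 in KCNQ5. The peak counted for FAM169B also carried the symbol of IGF1R, and that for TRPM1 the symbol of MTMR10, so the start site measured there may be that of the other gene. Whether a peak belongs to the microRNA, to its host or to neither cannot be read from the distance alone.

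Counted by locus, 30 loci had 4 or more peaks and together held 156 of the 548. They comprised 12 microRNAs, 9 loci of RF02271, 5 of spliceosomal RNAs, 3 of other Rfam accessions and the 5.8S rRNA gene. The microRNAs were gga-mir-6595 and gga-mir-6634 with 6 peaks each, gga-mir-1743, gga-mir-383 and gga-mir-6628 with 5 each, and gga-mir-137, gga-mir-1761, gga-mir-1806, gga-mir-1813-1, gga-mir-210a, gga-mir-6671 and gga-mir-7448 with 4 each. Outside gga-mir-210a the peaks of each of these microRNAs were spread over 40120 to 397628 bp. The entry for gga-mir-6634 also carried the symbol of another gene, so the start site measured there may be that gene's. At gga-mir-137 on chromosome 8, a microRNA of neurons, the 4 peaks lay between 14760 and 32903 bp from the start site and had 9, 11, 11 and 12 fragments with fold enrichments of 4.35 to 5.66, all with the background at its floor. The peaks of gga-mir-383, inside the sarcoglycan gene SGCZ, had 7 to 11 fragments between 4100 and 172547 bp.

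Spliceosomal RNA genes were nearest to 57 peaks at 25 loci. U6 RNA (RF00026), the catalytic RNA of the spliceosome, accounted for 38 peaks at 14 loci on 5 chromosomes, with a median distance of 76512.5 bp. A single U6 peak was within 3 kb, on chromosome 28 at 306 bp from the start site, with 11 fragments and a fold enrichment of 4.97, with a −log10 q of 3.57. A U6 gene on chromosome 5 was nearest to 9 peaks over a stretch of 482084 bp, all between 64409 and 392644 bp from it, with 7 to 11 fragments. Most U6 peaks were thus far from the gene that names them.

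The strongest of the 548 peaks was of this kind. It lay on chromosome 3 from 74905205 to 74905357, 101619 bp from a U6 gene, with 262 fragments (95% interval 231 to 296) over a background of 5.66 and a fold enrichment of 39.5 (34.9 to 44.6), with a −log10 q of 322. It ranked 6 among all autosomal peaks by −log10 q, and the next listed peak on the higher side, 128655 bp away, was nearest MAP3K7, a kinase of inflammatory signalling. Another U6 peak, on chromosome 1 from 97236137 to 97236357, had 168 fragments over a background of 30.4 and a fold enrichment of 5.38 at 195113 bp. Both had a high IgG background, and neither lay near the gene that names it.

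U1 RNA (RF00003), which recognizes the 5′ end of introns, was nearest to 13 peaks at 6 loci with 8 to 12 fragments, 1 of them within 3 kb. U2 RNA (RF00004), which pairs with the branch point, had 2 peaks at 2 gene copies on chromosome 1, at 1282 and 1256 bp from the start site. Each had 25 fragments (95% interval 16.2 to 36.9), with fold enrichments of 2.32 and 2.79 over backgrounds of 10.2 and 8.32 fragments. They had the highest pileups among the spliceosomal RNA peaks within 3 kb, and both had a high IgG background. U4 RNA (RF00015) had 1 peak at 6010 bp, and U6atac RNA (RF00619), of the minor spliceosome, had 3, none within 3 kb.

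The ribosomal RNA genes gave the highest pileups of the 548 together with the highest backgrounds. The 5.8S rRNA gene RF00002 on chromosome 16, where the nucleolus organizer of the chicken lies, was nearest to 14 peaks within 39971 bp, 4 on the lower and 10 on the higher side of its start site at position 1804046. Their pileups were 73 to 313 fragments with a median of 171.5, over backgrounds of 40.0 to 130 fragments. The fold enrichments were low, from 1.46 to 2.76 with a median of 1.88, against 3.92 over all 548. The highest pileup was at 1834503 to 1835457, with 313 fragments (95% interval 279 to 350) and a fold enrichment of 2.76 (2.46 to 3.08), with a −log10 q of 48.5 at 30457 bp. The closest to the start site, from 1801245 to 1801494 at 2552 bp, had 190 fragments over a background of 130 and a fold enrichment of 1.46 (1.26 to 1.68). Of the 14 peaks, 9 reached a −log10 q of at least 3 (64.3%, 95% interval 38.8 to 83.7), against 26.5% over all autosomal peaks. Low fold enrichments thus stood beside high significance in peak calling. The 14 peaks share 1 locus and are not independent of each other.

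The 5S rRNA (RF00001), which is transcribed apart from the other ribosomal RNAs, was nearest to 13 peaks at 8 loci. On chromosome 2, the peak from 86463120 to 86463266, 9497 bp away, had the highest pileup of the 548, at 1063 fragments (95% interval 1000 to 1129), but over a background of 928, and a fold enrichment of 1.15 (1.08 to 1.22), the lowest among all autosomal peaks. The other 12 had 7 to 10 fragments over backgrounds of 1.30 to 1.77. Reads from ribosomal RNA and spliceosomal RNA genes can fit many copies in the genome, and how such reads were placed is not given in the sources used here. Their part in these values was not tested.

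A high IgG background, taken as more than 3 times the floor or 3.89 fragments, was found at 34 of the 548 peaks (6.20%, 95% interval 4.47 to 8.54), against a background of 7.86% over all autosomal peaks. All 14 peaks of the 5.8S gene were among them, and without chromosome 16 the share was 3.75%. By group it was 10 of 294 microRNA peaks (3.40%), 1 of 102 RF02271 peaks and 5 of 57 spliceosomal RNA peaks. The 10 peaks with the highest −log10 q all had a high IgG background. They were the 2 U6 peaks above, 5 of the 5.8S gene, gga-mir-6555, gga-mir-6628 and RF02252. Of the 514 peaks without it, the highest −log10 q was 11.3.

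**Figure D3:**
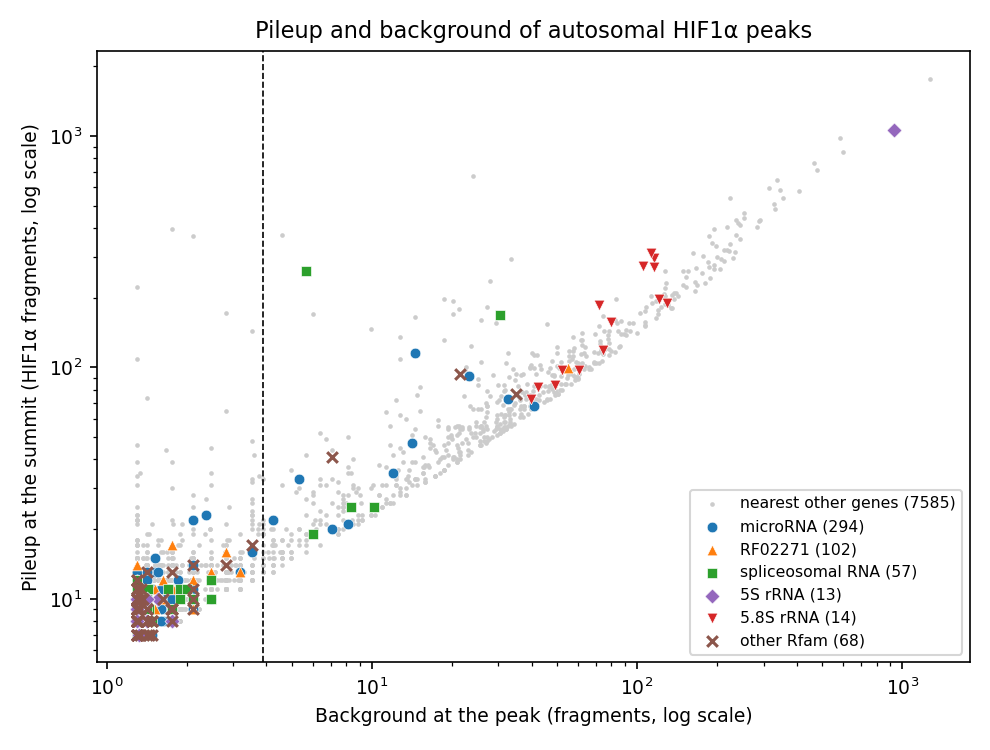
Pileup at the summit (HIF1α fragments) against background (fragments), both on log scales, for 7585 autosomal peaks nearest other genes (grey) and for the 548 peaks by RNA group, with a dashed line at the limit of 3.89 fragments for a high IgG background. The 5.8S rRNA peaks lie to the right between 40.0 and 130 fragments of background, the U6 peak with a fold enrichment of 39.5 stands above the cloud, and most microRNA and RF02271 peaks crowd at 7 to 9 fragments near the floor of 1.30.

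Among microRNA peaks the highest −log10 q, 56.7, was that of a peak on chromosome 1 from 168305542 to 168305682, 68948 bp from gga-mir-6555 inside ENOX1. It had 115 fragments over a background of 14.5 and a fold enrichment of 7.48 (6.19 to 8.97). Next by fold enrichment was a peak on chromosome 1 from 414341 to 414743, 7030 bp from gga-mir-12207, with 22 fragments over a background of 2.12 and a fold enrichment of 7.37 (4.74 to 10.99). It was followed by one at 47526 bp from gga-mir-12278 inside SBF2 on chromosome 5, with 23 fragments and a fold enrichment of 7.11. One of the 5 peaks of gga-mir-6628 on chromosome 2 had 92 fragments over a background of 23.3 and a fold enrichment of 3.82 at 88570 bp. Of these 4 peaks, that of gga-mir-12207 was the closest to its start site.

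The remaining Rfam accessions were 30 in number, with 60 peaks at 31 loci and a median distance of 20669 bp. Of the 60, 8 were within 3 kb (13.3%, Wilson interval 6.91 to 24.2), close to the share of 13.1% over all autosomal peaks. The closest was at RF00204 on chromosome 4, 630 bp away with 8 fragments. Among the 8, the peak at 2705 bp was listed under both RF00334 and RPL27A, so the start site may be that of RPL27A. The peak at RF02252 on chromosome 3, from 25940481 to 25940635 and 867 bp from the start site, had 94 fragments over a background of 21.6 and a fold enrichment of 4.21 (3.41 to 5.14), with a −log10 q of 25.7. Its neighbour on the higher side, 1938 bp away, was a peak from 25942574 to 25942996 at 222 bp from SIX3, a homeobox gene of eye and forebrain development, with 15 fragments and a fold enrichment of 5.20. The neighbouring peak had a background of 2.08 fragments, well under that at RF02252. The other close peaks that passed a −log10 q of 3 were at RF00568 (1281 bp, 13 fragments, fold enrichment 5.06) and RF00478 (2585 bp, 11 fragments, 5.22).

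Loci with 4 or more peaks among these accessions were RF00349 on chromosome 2 and RF02113 on chromosome 3 with 5 each. A locus on chromosome 9 listed under both RF01953 and RF01951 had 4. At the last the peaks were 4368 to 48829 bp from the start site with 8 to 12 fragments and a median fold enrichment of 4.95. Other well-known small RNAs were nearest to few peaks. The signal recognition particle RNA (RF00017, protein export), U7 RNA (RF00066, histone messenger processing), 7SK RNA (RF00100, control of transcription elongation) and vault RNA (RF00006) had 2 peaks each, with 8 to 11 fragments and none within 3 kb.

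RF02271 was nearest to 102 peaks (18.6% of the 548) at 47 loci on 15 chromosomes. Which RNA this accession stands for is not given in the sources used here. The loci were spread widely, with 28 peaks on chromosome 2, 14 on chromosome 4, 12 on chromosome 1 and 11 each on chromosomes 3 and 5. Among the 101 peaks without high IgG background the fold enrichment reached 6.53 and the median was 3.92, as over all 548. The 3 peaks within 3 kb were at 325 bp on chromosome 5, 1012 bp on chromosome 20 and 2784 bp on chromosome 2, with 7, 8 and 7 fragments. Each was at the weak end of the list. The strongest by −log10 q, 7.76, lay at 33250341 to 33250452 on chromosome 5, 23966 bp from the start site, with 17 fragments and a fold enrichment of 6.50. The highest fold enrichment, 6.53, was shared by a peak on chromosome 3 at 193784 bp and another on chromosome 5 at 6569 bp, each with 14 fragments. A locus on chromosome 1 had 8 peaks over 674571 bp, of which 1 had 99 fragments over a background of 54.8 and a fold enrichment of 1.79.

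Across chromosomes, peaks nearest small noncoding RNA genes were found on 26 of 32 autosomes. They made up 360 of 4917 peaks on chromosomes 1 to 5 (7.32%, 95% interval 6.63 to 8.08), 81 of 1224 on chromosomes 6 to 10 (6.62%, 5.36 to 8.15) and 107 of 1992 on the smaller ones (5.37%, 4.46 to 6.45). Chromosome 16 stood apart with 14 of 38 peaks (36.8%, 95% interval 23.4 to 52.7), all of them at the 5.8S gene. None was found on chromosomes 22, 25, 27, 30, 31 and 32, of which chromosome 27 had the most peaks, 118, which allows a share of up to 2.54% by the limit of 3 peaks of 118, with a Wilson upper bound of 3.15%. RF02271 supplied 76 of the 360 peaks on chromosomes 1 to 5 and 11 of the 107 on the smaller ones. The number of annotated small noncoding RNA genes on each chromosome was not used here, so these shares describe the peaks and not a rate per gene.

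**Figure D4:**
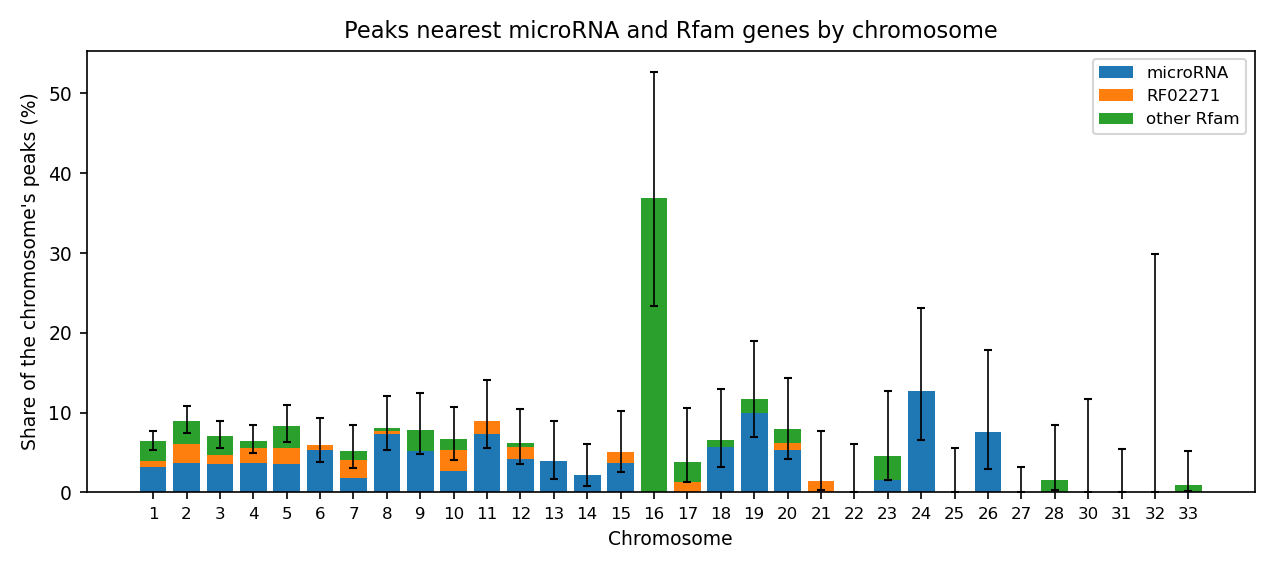
Share (%) of each autosome's peaks that were nearest a microRNA (blue), RF02271 (orange) or another Rfam gene (green), with Wilson 95% intervals of the sum as black lines. Chromosome 16 reaches 36.8% from 14 of 38 peaks, and 6 autosomes have none.

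Most loci had few peaks, with 169 of 296 nearest to 1 peak, 68 to 2 and 29 to 3. For the 127 loci with several, the start site could be worked out from the distances, and 195 of their 379 peaks were on the lower-coordinate side and 183 on the higher, while 1 covered it. Peaks of 1 locus were on the whole far apart, with a median gap of 34580.5 bp between neighbours. A gap of 1 kb or less was found 17 times, 6 of them at the 5.8S gene and 3 at gga-mir-210a. The strand of the genes is not in the list, so upstream and downstream were not distinguished.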

How the data were processed

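The authors trimmed reads with Trimmomatic, aligned them with Bowtie2 to galGal6 (Ensembl 96), and used SAMtools to keep fragments under 120 bp. Mitochondrial reads were removed, as were reads in genomic regions that the RepeatMasker track marks as low in complexity. Narrow peaks came from MACS2, run once on both HIF1α libraries together with both IgG libraries together as the control, at a q cutoff of 0.05. Versions, and the treatment of reads that fit several places, are not given in the sources used here. The deposited pileup is a signal in whole HIF1α fragments: the Poisson p recomputed from it differed from the deposited −log10 p by at most 0.00165 at 8369 peaks. Fold enrichment, as deposited, is a ratio (pileup plus 1 over background plus 1), from which the background was computed, and the deposited −log10 q is its adjusted significance. Distances, transcripts and symbols were the authors'. The depth of each library is unknown from the list. Columns that matched no sample numbered 0.

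Python 3.11.15 with pandas 2.3.3 and scipy 1.17.1 was used. Shares carry Wilson intervals, medians binomial rank intervals, and pileups and fold enrichments exact Poisson intervals with the background taken as fixed, all at 95%. No tests were run, since the list has 1 value per peak. Names of RNAs for Rfam accessions come from general knowledge of Rfam. Host genes were taken by symbol from the RefSeq table of GRCg7b, whose coordinates are not printed. No sequence was used here.

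The members, RNA classes and microRNA lists were chosen with earlier results of these data known. Named were the 10 symbols with most peaks, the 10 highest peaks by −log10 q and 5 by fold enrichment, every peak within 1 kb, every microRNA with a peak within 10 kb, loci with 4 or more peaks and members of the microRNA lists. Some other peaks, such as that of SIX3, were named after their values were seen. Alternatives were minimum −log10 q values of 2 or 3, a minimum fold enrichment of 3, no high IgG background, merging of peaks within 1 kb, stricter and looser reading of the symbol, sex chromosomes included, and peaks within 100 kb.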

Additional observations from a re-analysis of the deposited data

How the results depend on the processing

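Under the 9 alternatives of the processing section and 2 chosen after seeing the data (no chromosome 16, and 1 peak per locus), 70 of 87 recomputed values stayed close to those reported and 17 moved. At a −log10 q of at least 2 there were 291 peaks at 188 loci, with a median pileup of 10, a median fold enrichment of 4.35 and a high IgG background at 9.62%. At a −log10 q of at least 3 there were 141 peaks at 101 loci, with medians of 11 fragments and 4.95 and a high IgG background at 15.6%. That last share was 1.72% with a fold enrichment of at least 3 and 3.75% without chromosome 16, and it has no value once such peaks are left out. With peaks within 100 kb alone, the median distance was 22926 bp and the RF02271 share 15.6%. With 1 peak per locus there were 296 peaks, with a median fold enrichment of 4.35 and a median distance of 25935.5 bp. The looser reading, in which the small RNA could stand anywhere in the gene entry, gave 614 peaks. Of these, 12.1% were within 3 kb and the median distance was 29743 bp. Both values stayed inside the main intervals but were nearer those of all autosomal peaks, 13.1% and 23349 bp. The higher pileup and fold enrichment at stricter thresholds follow from their construction. So do the shorter median distance within 100 kb and the higher fold enrichment when the strongest peak of each locus is kept. Lower counts at stricter thresholds follow in the same way, as does the lower high IgG share without chromosome 16, where all 14 peaks had such a background. The lower RF02271 share within 100 kb also follows, since 34 of its 102 peaks (33.3%) lay beyond, against 20.3% of the 548. The cause of the other changes was not tested.

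No paired analysis was possible because libraries were merged before peak calling, which leaves 1 value per peak. Leaving out a library was not possible either. A pileup of 7 to 9 fragments lies behind 63.1% of the peaks, and this depth limits what can be said of a single locus.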

Other observations

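The same kinds of symbol also named peaks outside the 548. On chromosome Z there were 20 such peaks at 15 loci, 5 of them nearest RF02271. They had a median pileup of 9 fragments, a median fold enrichment of 3.92 and a median distance of 43582.5 bp. Of the 20, 1 (5.0%) was within 3 kb, compared with 13.1% of all autosomal peaks. Chromosome W had none. On the autosomes, 66 peaks at 53 loci had a microRNA or Rfam symbol later in the gene entry, after that of another gene. Their median distance was 10029 bp, and 20 of them (30.3%) were within 3 kb, against the same 13.1%. A further 3 peaks of this kind lay on chromosome Z, with a median distance of 62163 bp. Such an entry names several genes but gives a single transcript, so the distance may be to the start site of the other gene. The values were not compared with those of the 548 by a test.

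Several microRNAs of the oxygen and lens lists were named by peaks of these 3 kinds. A peak on chromosome 19 from 7501623 to 7501780 carried the symbols of VMP1, an autophagy gene, and gga-mir-21, and lay 11632 bp from the start site with 9 fragments and a fold enrichment of 4.35. On chromosome Z, gga-mir-23b had a peak with 10 fragments and a fold enrichment of 4.79 at 61149 bp, and gga-mir-9-2 had one with the same values at 21195 bp. The other mir-204 gene of the list, gga-mir-204-1 inside the channel gene TRPM3 on chromosome Z, was named by peaks at 62163 and 64336 bp with 11 and 8 fragments and fold enrichments of 5.22 and 3.73.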
